A study of Mus musculus with 31 samples.

Results

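The nuclear genes of the oxidative phosphorylation machinery were examined on 31 mouse expression arrays. A gene was included when a probe set (the group of short probes that reads a transcript) carried its symbol alone and that symbol began with Nduf, Uqcr or Atp5, began with Cox followed by a digit from 4 to 8, or was Sdha, Sdhb, Sdhc, Sdhd or Cycs. These names took in 91 of the 18193 genes on the array, read by 183 probe sets. Because 52 of the 91 genes had several probe sets, the brightest on average over the 31 arrays stands for each gene. The selection used names and mean level, not differences between groups. A further 8 symbols of this kind occurred only on probe sets that carried other symbols as well, and they are not described. Of the 91 genes, 88 lay above the table's median intensity of 39.82 on at least 2 arrays and were tested for differences together with all 12166 genes that did. The 3 that did not were Ndufb4, Cox4i2 and Cox7b2. The names reach slightly beyond the subunits: 8 Ndufaf genes encode factors that assemble complex I, Ndufa4l2 is a paralog of Ndufa4, and Cox7a2l joins respiratory complexes into larger assemblies.

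Oxidative phosphorylation is the mitochondrial process that makes most ATP in resting neurons, muscle and many other cells. Complexes I (Nduf genes) and II (Sdh genes) pass electrons from NADH and succinate to ubiquinone, complex III (Uqcr genes) passes them to cytochrome c (Cycs), and complex IV (Cox genes) passes them to oxygen. Complexes I, III and IV pump protons as they do so, and complex V, the ATP synthase (Atp5 genes), uses the proton gradient. A few core subunits are encoded by mitochondrial DNA, and several complex IV subunits exist as isoforms known from muscle, lung or testis.

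The arrays carried biotin-labelled RNA, and the labels place them in 10 groups of mouse CD4+ T cells. The unstimulated groups came from spleen and lymph nodes. They were natural regulatory T cells (natural Treg, CD4+Foxp3+EGFP+, 4 arrays) and conventional CD4+ T cells (3 arrays) of bicistronic Foxp3/EGFP mice, and CD4+Foxp3deltaEGFP+ precursor cells of heterozygous Foxp3deltaEGFP females (natural Foxp3-delta, 2 arrays). Foxp3/EGFP cells without reporter were stimulated with anti-CD3 and anti-CD28 antibodies, either alone (activated T, 4 arrays) or with TGF-beta for 3 days, after which cells with reporter (induced Treg, 5 arrays) and without it (failed induced Treg, 3 arrays) were sorted. Natural Treg given the same antibodies and TGF-beta formed the activated natural Treg group (3 arrays). Foxp3deltaEGFP cells taken through the induction gave the induced Foxp3-delta group (3 arrays). Induced cells of either genotype kept for 1 more week in interleukin 2 (IL-2) at 100 units per ml gave 2 arrays each. The series compares natural with induced Treg and intact with mutant Foxp3. All groups carry an EGFP reporter at Foxp3, and no age of the animals is given in the sources. The labels number the arrays within a group without naming separate animals or cultures, so the tests measure the spread between these arrays only.

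The labelled cell type did not match its markers. Of 9 T cell marker genes measured, Cd2 and Cd5 were above background on 0 arrays, Cd3d, Cd3g and Cd28 were above it on 21, 10 and 8, and Cd3e, Cd4, Cd6 and Zap70 on all 31. Cd3e averaged 38.58 ± 13.26 intensity units (SD, n = 31), Cd4 20.37 ± 4.80, Cd6 20.25 ± 1.27 and Zap70, which had the highest mean of the 9, 118.8 ± 7.79. Markers of nervous tissue were bright on every array, with Mbp of oligodendrocytes at 20080 ± 1296, Snap25 of neurons at 10270 ± 1085 and Gfap of astrocytes at 5145 ± 530.3. The groups are therefore called "arrays labelled" by the name given. The arrays also fell into 3 sets when clustered on a hybridisation control ratio, the deposited median and the deposited 99th percentile. Set 1 (15 arrays) held all arrays labelled conventional T, natural Treg or IL-2 cultured, set 3 (10 arrays) held all activated natural Treg and 3 of 4 activated T arrays, and set 2 held the other 6. The labels name no batch. The lowest correlation between any pair of arrays was 0.98.

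Genes of every complex were read far above background. Background was taken as 13.7 intensity units, the 95th percentile of 27 probe sets that read bacterial transcripts absent from the samples. 89 of the 91 genes lay above it on all 31 arrays. Ndufb4, an accessory subunit of complex I, averaged 14.7 ± 1.89 (SD, n = 31), so its probe set sat at background, and Cox7b2, an isoform known from testis, averaged 10.2 ± 0.82 and was above background on 0 arrays. Probe sets differ in how strongly they bind, so intensities of different genes show distance from background and give no order of transcript amounts.

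By complex, the 34 genes of complex I ran from 14.7 to 6323 in mean intensity, the 4 of complex II from 1558 to 4950, and the 8 of complex III from 2569 to 12840. The 17 genes of complex IV, counting Ndufa4, which is now placed there, ran from 10.15 to 15810. The 17 of complex V ran from 1869 to 9975. No gene of complexes II, III or V was dim. The 8 complex I assembly factors ran from 205.3 to 687.9. The dimmest genes of complex I after Ndufb4 were Ndufb1, at 168.8 ± 30.9 (SD, n = 31), and Ndufs4, at 1225.

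**Figure D1:**
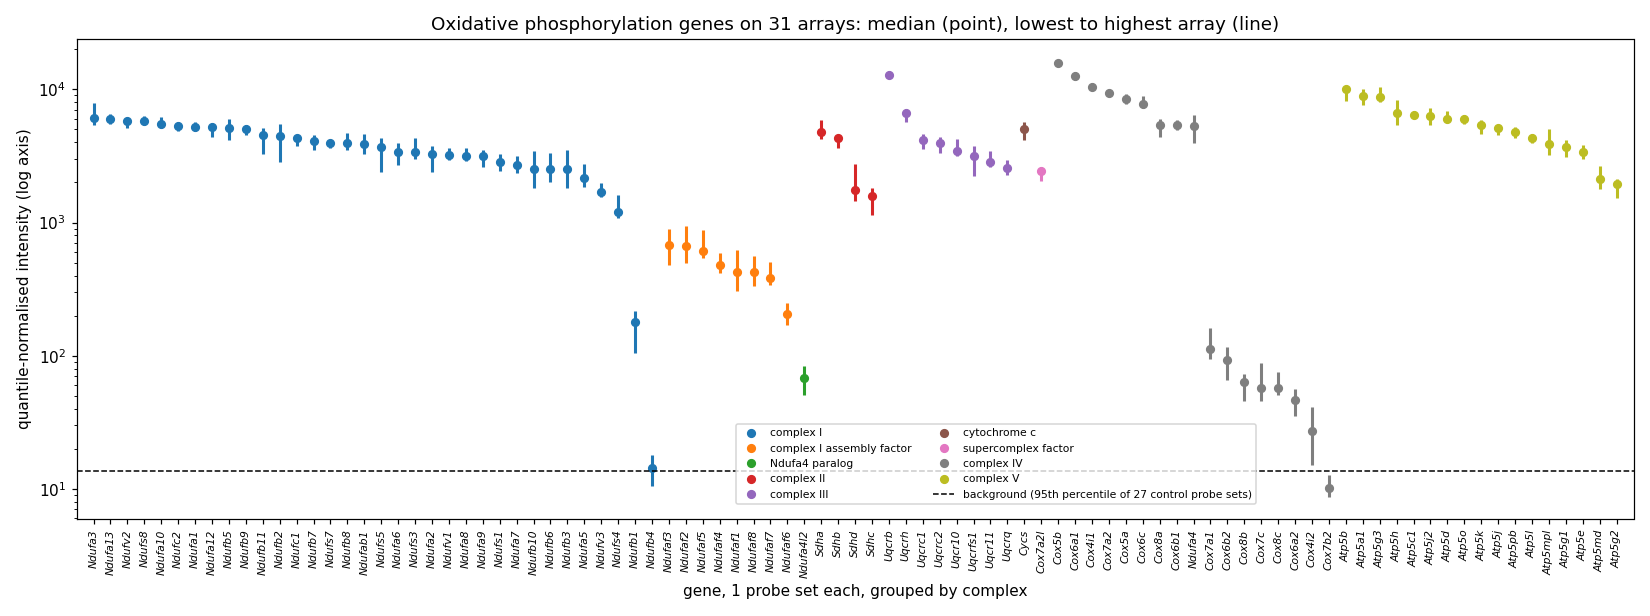
Quantile-normalised intensity (log axis) of the 91 genes, 1 probe set each, grouped by complex, with the median of 31 arrays as a point and the lowest to highest array as a line; the dashed line is the background of 13.7. Complexes II, III and V start at 1558 units or above on average, the assembly factors lie between 205.3 and 687.9, and the tissue isoforms of complex IV at 118.4 or below.

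The isoform families of complex IV were split. In each pair, the probe set of the widely expressed form was bright, and that of the form known from muscle, lung or testis was within about an order of magnitude of background. Cox4i1 averaged 10530 ± 366.8 (SD, n = 31) and Cox4i2, the lung and hypoxia form, 26.65 ± 6.13. Cox6a1 averaged 12620 ± 384.2 and Cox6a2, the heart and muscle form, 46.02 ± 5.31. These are different probe sets, so the values show that 1 member of a pair was bright and do not give a ratio of transcripts.

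The same held in the other families. Cox7a2 averaged 9443 ± 195.8 and the muscle form Cox7a1 118.4 ± 17.0. Cox6b1 averaged 5415 ± 256.8 and the testis form Cox6b2 93.22 ± 10.73. Cox8a averaged 5337 ± 410.8, against 62.09 ± 6.34 for the muscle form Cox8b and 58.42 ± 6.71 for the testis form Cox8c. Of 11 muscle markers, 9 averaged 14.13 to 43.33 units, Ckm (31.74) and Acta1 (43.33) among them, while Myh7 averaged 89.27 and Pygm 714.3. Of 4 testis markers, Ldhc, Tnp1 and Prm2 averaged 10.12, 12.62 and 16.91 and Prm1 59.24, in the range of the isoforms. Cox7c, which has no tissue isoform, was an exception among the widely expressed genes at 59.75 ± 9.68. Its other probe set with a single symbol averaged 14, so neither of them was bright.

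Atp5g1, Atp5g2 and Atp5g3, which encode the same mature c subunit of the ATP synthase rotor, averaged 3653 ± 230.3, 1869 ± 183.7 and 8816 ± 538.6. Sdha, the flavoprotein of complex II, averaged 4950 ± 507 and Sdhb, its iron-sulfur protein, 4271 ± 196.6. The membrane anchors Sdhc and Sdhd averaged 1558 ± 151.2 and 1826 ± 353.6. Cycs averaged 4931 ± 339.1, while the testis cytochrome c, Cyct, was at 11.81 ± 1.67. Ndufa4 averaged 5126 ± 923.4 and its paralog Ndufa4l2, known as a hypoxia target, 66.53 ± 9.30. Ndufv3, a small complex I subunit, averaged 1723 ± 119.2. Of the subunits encoded by mitochondrial DNA, ND5 was measured, at 13360 ± 1485.

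The promoters of these genes are known for sites of nuclear respiratory factor 1 (NRF1) and of ETS factors such as the GA-binding protein. RefSeq (build GRCm38.p6) gave a window of 300 bases, from 250 before to 50 after the start, for 75 of the 91 genes. Motifs were searched on both strands. The NRF1 core GCATGCGC was found in 16% of the 75 windows and in 2.8% of all 27025 promoter windows, and the longer palindromic NRF1 motif, which contains that core, in 8% and 0.977%. The ETS motif CCGGAAG was found in 24% against 9.12%, and the YY1 motif in 5.33% against 0.899%. The GC box GGGCGG was found in 48% against 35.9%, CCAAT in 44% against 37.9%, and TATAAA in 10.7% against 14.2%. A match describes letters in a window and is no measure of binding. The 150 bases before the start are given for 6 genes. Cycs is the classic respiratory gene, and the bright Cox6a1 and the dim Cox7a1 show the isoform contrast. Ndufb3 and Ndufb10 have the opposite array pattern described below, and Ndufb1 separated unstimulated from cultured labels within array set 1. Capitals mark motif matches on either strand.
Cycs (chr6:50566570-50566719, minus strand): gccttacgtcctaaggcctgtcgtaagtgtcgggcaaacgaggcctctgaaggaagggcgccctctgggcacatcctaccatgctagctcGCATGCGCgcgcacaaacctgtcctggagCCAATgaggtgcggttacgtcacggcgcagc
Cox6a1 (chr5:115348959-115349108, minus strand): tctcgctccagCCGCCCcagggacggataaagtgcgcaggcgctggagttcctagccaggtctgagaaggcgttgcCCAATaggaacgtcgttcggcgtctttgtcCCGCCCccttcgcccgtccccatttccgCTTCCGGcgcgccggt
Cox7a1 (chr7:30184021-30184170, plus strand): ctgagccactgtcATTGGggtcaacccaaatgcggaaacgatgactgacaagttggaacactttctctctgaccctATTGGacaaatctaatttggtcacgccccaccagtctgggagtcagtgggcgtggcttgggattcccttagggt
Ndufb3 (chr1:58586247-58586396, plus strand): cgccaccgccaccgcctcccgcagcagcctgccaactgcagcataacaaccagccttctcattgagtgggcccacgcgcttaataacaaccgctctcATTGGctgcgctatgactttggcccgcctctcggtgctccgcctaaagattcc
Ndufb10 (chr17:24724424-24724573, minus strand): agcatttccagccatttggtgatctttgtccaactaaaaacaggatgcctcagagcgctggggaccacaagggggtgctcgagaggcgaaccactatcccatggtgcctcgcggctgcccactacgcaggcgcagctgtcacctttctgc
Ndufb1 (chr12:101975739-101975888, minus strand): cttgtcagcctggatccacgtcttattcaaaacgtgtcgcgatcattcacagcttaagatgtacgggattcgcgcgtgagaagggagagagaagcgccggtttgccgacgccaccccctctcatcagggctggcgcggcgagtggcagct
Cycs holds an NRF1 core and a CCAAT box in the stretch shown, Cox6a1 a pair of GC boxes, a CCAAT box and an ETS motif, and Cox7a1 CCAAT boxes only. In the stretches shown for Ndufb10 and Ndufb1 none of the 7 motifs occurred.

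After quantile normalisation, most of these genes varied little between arrays. That rests on the scaling: with array median scaling the F test over the label groups called 74 of the 88 genes, and 32.7% of all genes. The SD of log2(intensity + 16) over the 31 arrays had a median of 0.113 for the 88 tested genes, against 0.159 for all genes tested. The genes were not matched for level in that comparison. The steadiest were Cox7a2 (SD 0.03), Cox5b (0.0353) and Atp5c1 (0.0424), which encode subunits of complexes IV and V. The most variable were 3 accessory subunits of the complex I membrane arm, Ndufb2 (SD 0.321), Ndufb10 (0.318) and Ndufb3 (0.316). Complex V had the lowest median SD of the complexes with more than 1 gene, 0.0862, and the assembly factors the highest, 0.164.

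The 3 genes with the largest SD followed the array set. Wide ranges did not always do so. The log2 range was 0.981 for Ndufaf1 and 0.963 for Ndufb1, and array set took up 12.4% and 20.4% of their variance. Ndufb3 read 1808, 2002 and 2233 (lowest, median, highest) on the 15 arrays of set 1, 2516, 2620 and 2787 on the 6 of set 2, and 2834, 3206 and 3509 on the 10 of set 3. Ndufb10 ran the other way, at 3037, 3121 and 3470 in set 1, 2152, 2228 and 2524 in set 2, and 1824, 2025 and 2335 in set 3. Set 1 overlapped neither of the other sets for either gene. Their ratio within an array, taken on deposited values, cannot be altered by scaling whole arrays. The log2 ratio of Ndufb3 to Ndufb10 was -0.82 to -0.41 in set 1, 0.05 to 0.33 in set 2 and 0.52 to 0.92 in set 3. Both genes were picked for their opposite patterns, so a ratio that separates the sets follows from that choice. Both genes encode accessory subunits of the same membrane arm, and the signals of their probe sets differed unequally between sets. Whether the transcripts or the array measurement differed was not tested.

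Other genes of the machinery split in the same manner. Ndufb2 read 2843 to 3620 in set 1, 4447 to 4831 in set 2 and 4872 to 5521 in set 3. Uqcrfs1, the Rieske iron-sulfur protein of complex III, read 2249 to 2961, 3136 to 3541 and 3166 to 3776. Lower outside set 1 were Ndufa4, with 5611 to 6368 in set 1, 3945 to 4341 in set 2 and 4013 to 5260 in set 3, and Ndufb6, with 2824 to 3351, 2244 to 2388 and 2013 to 2524. Atp5h, a subunit of the ATP synthase stalk, read 7486 to 8275 in set 1, 5686 to 6368 in set 2 and 5393 to 6621 in set 3. Ndufs3, a core subunit of the complex I arm that takes up NADH, stood apart in set 3 alone, at 4077 to 4297, with 3202 to 3509 in set 1 and 3012 to 3327 in set 2.

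Array set took up over 80% of the variance of 9 of the 88 genes, and of 2.92% of all genes tested. These were Ndufs3 (95.8%), Ndufb2 (94.9%), Ndufb3 (92.7%), Ndufb10 (92.5%), Ndufa4 (91.6%), Ndufb6 (91%), Atp5h (89.7%), Ndufa3 (82.2%) and Uqcrfs1 (81.1%). Of these, 6 are complex I subunits. Sets 1 and 3 did not overlap for 11 of the 88 genes, against 5.68% of all genes, and set 1 overlapped neither other set for 9, against 2.38%. The sets were defined from control probe sets and array-wide levels, and these genes were not singled out for that. They are not independent of the sets, however, because those levels included a high percentile of the deposited intensities. In mean intensity the 9 genes lay between percentiles 97.4 (Ndufb3) and 99.5 (Atp5h) of the probe sets, near that measure. How far this raised the shares of these genes above those of all genes was not tested. The median over genes of the variance taken up by array set was 37.1%, against 24.2% for all genes tested.

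**Figure D2:**
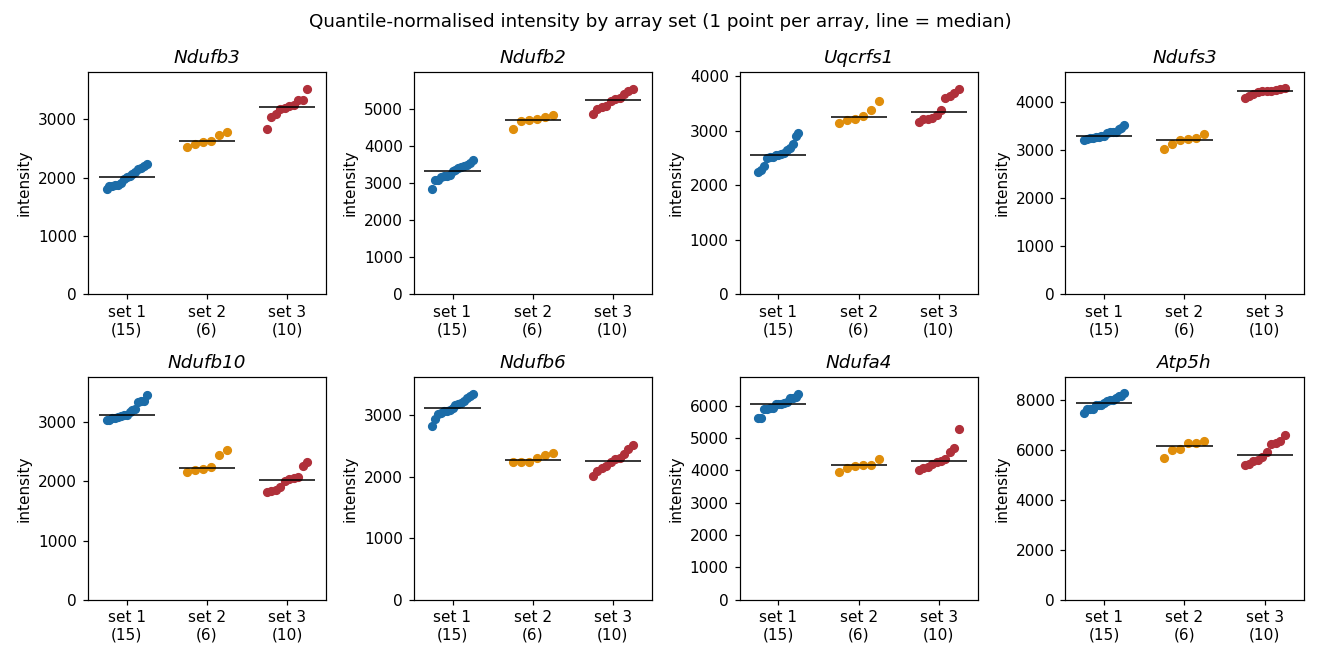
Quantile-normalised intensity of 8 genes by array set, 1 point per array, with the set median as a line; the number of arrays is in brackets and axes start at 0. Ndufb3, Ndufb2 and Uqcrfs1 are higher outside set 1, Ndufs3 is higher in set 3 only, and Ndufb10, Ndufb6, Ndufa4 and Atp5h are lower outside set 1.

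The first comparison set the label of antibody stimulation against that of unstimulated conventional cells. Between arrays labelled activated T and conventional T, 14 of the 88 genes passed the test (15.9%), 6 higher and 8 lower, while 6.76% of all genes tested passed, 3.36% higher and 3.39% lower. At an unadjusted p under 0.05 were 27 genes and 24.4% of all genes, and the groups did not overlap for 29 genes and 22.8% of all genes. The changes were spread over the complexes without a common direction: the median log2 difference of the 88 genes was 0.014, against 0.006 for all genes, with 45 genes above and 43 below zero, but with each array divided by its own median instead of quantile normalised it was 0.70, with 70 genes called higher and 0 lower and 32.5% of all genes called. The median of all genes moved to 0.17 under that scaling. Complex I had 4 genes called higher and 3 lower of 33 tested, complex V 1 higher and 3 lower of 17, complex III 1 higher of 8 and complex IV 1 lower of 15. Complex II (4 genes) and Cycs had 0 called, and among the 8 assembly factors Ndufaf2 was called. All conventional T arrays were in set 1 and no activated T array was, so no set holds both groups. With array set as a block, 1 gene was called, Ndufb1, and 0.0986% of all genes. The count fell to 9 without activated T 2 and to 5, 4 and 5 without conventional T 1, 2 and 3. The shares of all genes in these fits are not given, so the drops cannot be set against all genes. Without array set 3 a lone activated T array is left, and the median log2 difference of the 88 genes was 0.011.

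Ndufb1, an accessory complex I subunit, read 103.9, 110.4 and 134.6 on the 3 conventional T arrays and 175.9, 201.4, 217.7 and 173.9 on the 4 activated T arrays. The groups did not overlap, and the log2 difference was 0.66 (SE 0.10, limma adjusted p = 0.00142). It was 0.78 with array set as a block (adjusted p = 0.0194). Ndufb3 read 2056, 1808 and 2088 on conventional T and 2787, 3037, 3509 and 3235 on activated T arrays. Its difference was 0.66 (SE 0.13, adjusted p = 0.0076), and 0.20 with the block (adjusted p = 0.511). Also called higher were Ndufb2 (0.56, SE 0.16, adjusted p = 0.033), Uqcrfs1 (0.37), Atp5mpl, a small ATP synthase subunit (0.37), and Ndufb9 (0.16). Ndufb9 turned to -0.05 when all probe sets of a gene were averaged, and Ndufb2 to -0.13 with the block.

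Of the genes called lower, Ndufb10 read 3116, 3178 and 3105 on conventional T and 2212, 1836, 1850 and 2335 on activated T arrays, a difference of -0.61 (SE 0.14, adjusted p = 0.0155). The groups did not overlap, and they were in different array sets. Leaving out 1 array lost the call of Ndufb10 in 3 of 7 fits. With the block the difference was -0.04. Ndufa4 differed by -0.56, Ndufb6 by -0.54, Atp5h by -0.38 and Atp5g2 by -0.35 (SE 0.06, adjusted p = 0.00403). With array median scaling each of these 5 genes had a difference above zero, from 0.05 for Ndufb10 to 0.36 for Atp5h.

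Ndufaf2, which helps to join the parts of complex I late in assembly, differed in another way. It read 903.4, 704.9 and 808.8 on conventional T and 499.3, 581.6, 617.1 and 565 on activated T arrays, so that the groups did not overlap. The log2 difference was -0.495 (SE 0.10, adjusted p = 0.0062), -0.59 with array set as a block (adjusted p = 0.0808) and -0.17 with array median scaling. Label group took up 82.9% of its variance over all arrays and array set 19.9%. These shares are not on a like footing, because label group has 10 levels and array set 3. Their medians over all genes tested were 41.1% and 24.2%. The arrays labelled natural Treg read 843.5, 934.4, 749.5 and 840.7 and those labelled natural Foxp3-delta 821.9 and 872.5. The 5 induced Treg arrays read 537.3 to 604.9 and the 3 induced Foxp3-delta arrays 502.3 to 559. Not all of the other stimulated or cultured labels followed that division. Activated natural Treg arrays read 809.4, 748.9 and 634.1 and IL-2 induced Treg arrays 720.6 and 732.1, partly within the range of the unstimulated arrays, while failed induced Treg (545.3, 693.5 and 665.1) and IL-2 induced Foxp3-delta arrays (598.9 and 693.8) lay below it.

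**Figure D3:**
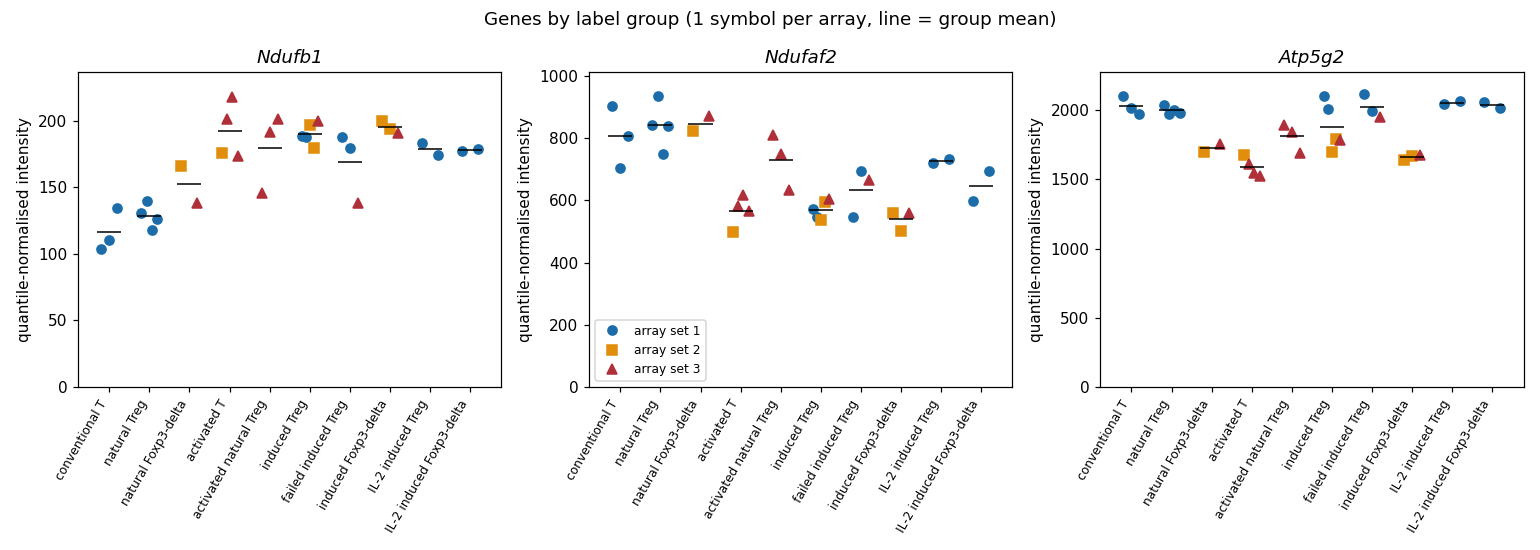
Quantile-normalised intensity of Ndufb1, Ndufaf2 and Atp5g2 in the 10 label groups, 1 symbol per array with shape and colour for the array set and a line for the group mean; axes start at 0. Ndufb1 is low on conventional T and natural Treg arrays (103.9 to 139.5), a range that also holds failed induced Treg 3 (138.5) and natural Foxp3-delta 2 (138.6). Ndufaf2 is higher on the unstimulated groups than on activated T arrays, and Atp5g2 is highest in array set 1.

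Ndufb1 was examined further within set 1, where labels can be compared without a change of set. The 7 arrays labelled conventional T or natural Treg read 103.9 to 139.5, with a median of 125.9. The 8 arrays of that set with a cultured label read 174.1 to 188.3, with a median of 181.7. No other member separated in this way, and 0.378% of all genes tested did. Outside set 1 the natural Foxp3-delta arrays read 166.1 (set 2) and 138.6 (set 3), and failed induced Treg 3 (set 3) read 138.5, within the range of the unstimulated arrays. With set 1 alone, an alternative added after the data were seen, 1 of the 88 genes, Ndufb1, passed the F test over the 6 groups present (adjusted p = 0.0127), as did 1.13% of all genes.

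The second comparison set the label of natural Treg stimulated with the antibodies and TGF-beta against that of natural Treg. Between arrays labelled activated natural Treg and natural Treg, 17 of the 88 genes passed (19.3%), 9 higher and 8 lower, and 16.7% of all genes did (8.61% higher, 8.06% lower), so the share was near the background. An unadjusted p under 0.05 was reached by 34 genes and 32.3% of all genes, and the groups did not overlap for 32 genes and 30% of all genes. The median log2 difference was 0.03 against 0.004 for all genes, with 54 above and 34 below zero, and 0.74 with array median scaling, under which 63 genes were called higher and 1 lower and 22.8% of all genes were called. Complex I had 4 called higher and 4 lower of 33, complex II 2 higher and 1 lower of 4, complex III 1 each way of 8, complex V 2 higher and 1 lower of 17, and complex IV 0 of 15. All natural Treg arrays were in set 1 and all activated natural Treg arrays in set 3, so stimulation and array set cannot be told apart within these groups. With array set as a block, estimated through the other groups, 1 gene was called, Uqcr10 of complex III (-0.36, SE 0.06, adjusted p = 0.0264), and 0.362% of all genes. The count was 9 without activated natural Treg 1, 11 without activated natural Treg 2 and 11 without natural Treg 4. The shares of all genes in these fits are not given either.

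Ndufb3 read 1850, 1907, 1858 and 2233 on the 4 natural Treg arrays and 3095, 3174 and 3187 on the 3 activated natural Treg arrays. The groups did not overlap, and the difference was 0.68 (SE 0.13, limma adjusted p = 0.00251). Ndufb10 read 3121, 3046, 3217 and 3037 against 2253, 2054 and 1824, a difference of -0.605 (SE 0.14, adjusted p = 0.00708). With the block these were 0.15 and 0.01. In complex II, the anchor Sdhd read 1699, 1836, 1807 and 1632 on natural Treg and 2755, 2760 and 1992 on activated natural Treg arrays, with a difference of 0.50 (SE 0.15, adjusted p = 0.0275). The other anchor, Sdhc, was called in the opposite direction (-0.29, limma adjusted p = 0.0395). Its groups overlapped, at 1609 to 1716 on natural Treg and 1144, 1621 and 1377 on activated natural Treg arrays. The Sdhc difference turned to 0.09 with array median scaling. Leaving out 1 array lost the call of Sdhc in 6 of 7 fits and that of Sdhd in 4. Sdha was called higher (0.31). Ndufb2 (0.64), Uqcrfs1 (0.46), Ndufb1 (0.43) and Ndufs3 (0.35) were also called higher. Ndufb1 turned to -0.23 on deposited values and Ndufb2 to -0.088 with the block, and the call of Ndufs3 was lost in all 7 fits that left out an array. Called lower were Ndufb6 (-0.53), Atp5h (-0.44), Ndufa6, an accessory complex I subunit (-0.35), and Ndufa4l2, whose intensities were low (-0.335). With array median scaling Ndufb6, Atp5h and Ndufa6 had differences above zero as well, from 0.02 to 0.41.

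Of the genes called in these comparisons, 7 were called in both, 50% of the 14 and 41.2% of the 17, each with the same sign. Of all genes tested, 416 were called in both, 50.6% of those called in the first and 20.5% of those called in the second, 414 of them with the same sign. The 2 comparisons share no arrays, but 6 of the 7 keep array sets 1 and 3 apart. The differences between stimulated and unstimulated labels were set against each other with a limma interaction term. It called 0 of the 88 genes (0% of all genes), while 5 genes and 7.64% of all genes had an unadjusted p under 0.05. The smallest p belonged to Ndufaf1, an assembly factor of the complex I membrane arm, with an interaction of -0.42 (SE 0.14, adjusted p = 0.46), and to Atp5g2 (0.21, SE 0.09, adjusted p = 0.608).

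**Figure D4:**
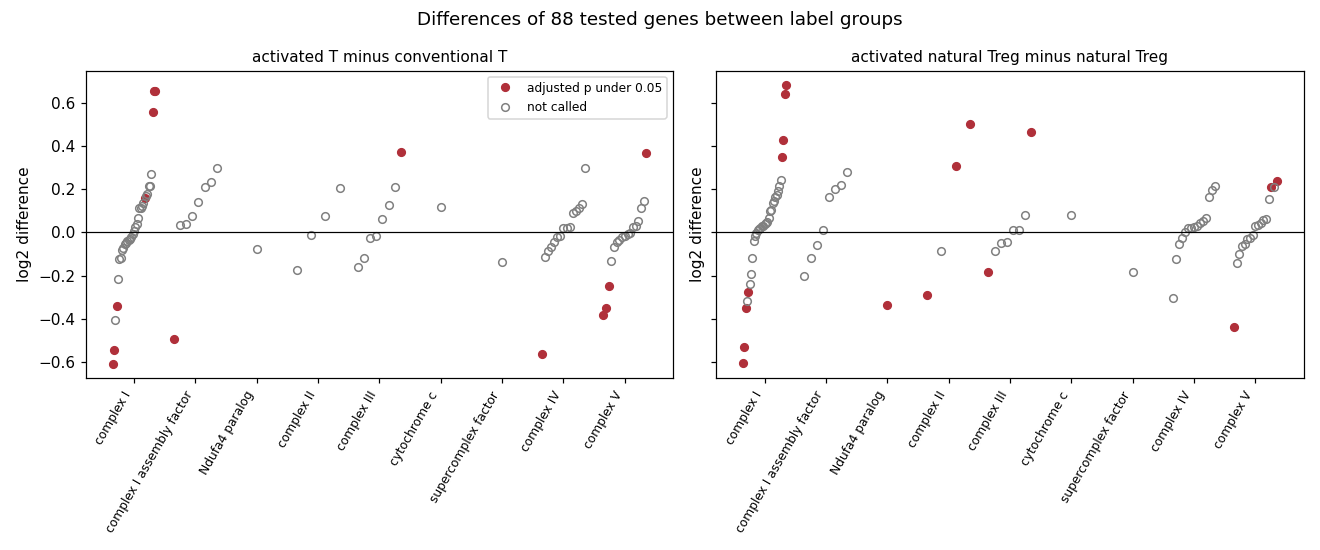
Log2 difference of each of the 88 tested genes between label groups, by complex and sorted within it, with filled points for limma adjusted p under 0.05. In each panel points called higher and lower occur within complex I and complex V, from -0.61 to 0.66 on the left and from -0.605 to 0.68 on the right; with array median scaling the differences lie mostly above zero.

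Other properties of the arrays moved with these comparisons. The ratio of the 3' to the 5' actin probe sets, a measure of RNA integrity and labelling, was 2.05 to 2.13 on activated natural Treg arrays and 1.73 to 1.84 on natural Treg arrays, without overlap. It was 1.62 to 1.99 on activated T and 1.79 to 1.8 on conventional T arrays. With that ratio as a covariate 0 of the 17 genes kept their call between the natural Treg labels (0.6% of all genes were called), and Ndufb3 had a difference of 0.44 there. Between activated T and conventional T arrays 15 genes and 7.92% of all genes were called with that covariate, against 14 and 6.76% without it. The summed intensity of 8 astrocyte markers was 45060 to 51430 on activated T and 41050 to 43360 on conventional T arrays, and 45650 to 50160 on activated natural Treg against 41350 to 47250 on natural Treg arrays. The sum of 12 neuron markers was 76640 to 79560, 76510 to 81170, 74550 to 81210 and 80610 to 82290 in the same order, and that of 9 oligodendrocyte markers 72730 to 75830, 75790 to 78370, 70120 to 74850 and 72840 to 76470. The sum of the 9 T cell markers was 265.5 to 308, 239.2 to 254.8, 246.7 to 287.7 and 249.3 to 252.4. Sums are ruled by the brightest markers. Between activated T and conventional T arrays Rbfox3 of 12 neuron markers (-0.705) and Olig1 of 9 oligodendrocyte markers (-0.444) were called, and Cd3e (0.812) of 2 T cell markers tested. Between the natural Treg labels these were Cplx1 (-0.403), 0 oligodendrocyte markers and Cd3e (0.593). Of 8 astrocyte markers 0 were called in either. Of 8 microglia and macrophage markers tested, C1qb (-0.303) was called between the natural Treg labels and 0 between activated T and conventional T arrays. Of 5 muscle markers tested, Mb (0.531) was called between the natural Treg labels and Myh7 (0.302) between activated T and conventional T arrays. The part of the cell type markers in the differences was not tested. In bulk RNA, fewer cells of a type and less RNA per cell cannot be told apart.

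Arrays labelled natural Treg and conventional T, all in set 1, were compared for the label difference before culture. 0 of the 88 genes passed (0.00822% of all genes did), 0 had an unadjusted p under 0.05 by limma, and 2.65% of all genes had one. The differences ran from -0.12 to 0.13. The smallest p belonged to complex I subunits: Ndufv1, which carries the NADH site, read 3067, 3436, 3124 and 2978 on natural Treg and 3440, 3398 and 3405 on conventional T arrays (-0.12, 95% interval -0.24 to 0.01, adjusted p = 1), and Ndufc1 differed by -0.08 (interval -0.18 to 0.02). The Ndufc1 groups did not overlap, at 3894 to 4185 on natural Treg and 4271 to 4280 on conventional T arrays, as was the case for 4 of the 88 genes and 6.7% of all genes. For Ndufb3 the difference was -0.02 (interval -0.29 to 0.26), which does not reach the 0.66 between activated and conventional T arrays.

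Arrays labelled induced Treg, and those labelled failed induced Treg, were each compared with the same activated T arrays. Because both comparisons use those arrays, their values are not independent. Between induced Treg and activated T arrays 0 of the 88 genes passed (0.0493% of all genes did), and 13 genes and 10.9% of all genes had an unadjusted p under 0.05. Atp5g2 read 2104, 2005, 1696, 1791 and 1782 on induced Treg and 1674, 1614, 1543 and 1526 on activated T arrays, a difference of 0.23 (SE 0.06, adjusted p = 0.132). The 2 highest arrays, induced Treg 1 and 2, were in set 1, and within set 2 the difference was 0.06 and within set 3 0.19. Without activated T 1, the only set 2 array of that label, Atp5g2 was called (0.26, adjusted p = 0.0408) and no other member was. Ndufaf1 differed by -0.25 (SE 0.09, adjusted p = 0.35), and by 0.23 on deposited values. Those values called 20 of 89 genes higher and 59.3% of all genes, with 89 genes above zero, whereas array median scaling called 0, with 8 above and 80 below zero.

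Between failed induced Treg and activated T arrays Atp5g2 was the 1 gene called of 88 (0.0411% of all genes were). It read 2118, 1994 and 1951 on failed induced Treg arrays, all above the activated T arrays, with a difference of 0.34 (SE 0.06, adjusted p = 0.0336). Within array set 3, failed induced Treg 3 exceeded the 3 activated T arrays by 0.32. With array set as a block the difference was 0.23 (adjusted p = 0.138), and with array median scaling 0.08. The call was lost in 5 of 7 fits that left out an array: failed induced Treg 1 or 2, or activated T 2, 3 or 4. Without failed induced Treg 3 the count rose to 4, with the share of all genes not given.

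The labels of the intact and the mutant Foxp3 allele were compared next. Since the markers did not match the labelled cells, the counts are no evidence about Foxp3 in T cells. Between induced Treg and induced Foxp3-delta arrays 0 of 88 genes passed (0% of all genes), with 4 genes and 2.81% of all genes at an unadjusted p under 0.05. The smallest p belonged to Atp5g2, which read 1641, 1672 and 1675 on induced Foxp3-delta arrays (0.17, 95% interval 0.04 to 0.29, adjusted p = 1), and to Ndufb6 (0.23, adjusted p = 1). Within sets 2 and 3 Atp5g2 differed by 0.07 and 0.09. Between natural Treg and natural Foxp3-delta arrays 0 of 88 passed (0.0493% of all genes), with 20 genes and 16.1% of all genes at an unadjusted p under 0.05. Ndufa4 read 6240, 5938, 5611 and 6070 on natural Treg and 4163 and 4088 on natural Foxp3-delta arrays (0.53, SE 0.14, adjusted p = 0.102), and Ndufb3 read 2570 and 3225 on the latter (-0.55, SE 0.15, adjusted p = 0.102). With array median scaling 40 genes were called, all lower, against 12.3% of all genes, and Ndufa4 turned to -0.22 (-0.13 on deposited values). No array set holds both groups. With the block, Ndufa4 was at -0.02 and Ndufb3 at -0.17.

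Arrays labelled with a further week in IL-2 were compared with those labelled as the end of induction. These labels are called after and before IL-2. Between IL-2 induced Treg and induced Treg arrays 2 of 88 genes passed (2.27%), both lower, and 2.19% of all genes did (1.03% higher, 1.16% lower). At an unadjusted p under 0.05 were 17 genes and 17.1% of all genes. Cox6b1, a complex IV subunit on the side that faces the intermembrane space, read 4964 and 4920 after IL-2 and 5695, 5859, 5901, 5710 and 5529 before, without overlap. The difference was -0.21 (SE 0.05, adjusted p = 0.0352), -0.22 within array set 1 (2 arrays against 2) and -0.23 with the block (adjusted p = 0.0218). Uqcrfs1 read 2359 and 2290 after IL-2 and 2961, 2751, 3278, 3382 and 3211 before, a difference of -0.42 (SE 0.10, adjusted p = 0.023), and -0.29 within set 1. Uqcrfs1 was called neither with the block nor with set 1 alone, where Cox6b1 was called (limma adjusted p = 0.0453). Either call was lost when either IL-2 array, induced Treg 3 or induced Treg 4 was left out, and that of Cox6b1 without induced Treg 2 as well. Cox7a1, the muscle isoform, read 110.8 and 98.39 after IL-2 and 161.1 and 152.9 on the 2 induced Treg arrays of set 1. It was called with the block (-0.47, adjusted p = 0.0233) and with set 1 alone (-0.52, SE 0.105, adjusted p = 0.0345), but not over all sets (-0.34, adjusted p = 0.106). With the block Ndufa2 (0.40) and Atp5d (0.25) were called higher as well, which makes 4 of 88 against 1.69% of all genes, and with set 1 alone 2.08% of all genes were called.

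Over the 10 label groups together, the F test called 15 of the 88 genes (17%), against 13.6% of all genes. It called 53 on deposited values (48.8% of all genes) and 74 with array median scaling (32.7%). With array set as a block it called 3, namely Ndufaf2 (adjusted p = 0.00498), Ndufb1 (0.0131) and Uqcr10 (0.0305), and 1.26% of all genes.

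Genes that build and feed the respiratory chain were counted in the same stimulation comparisons. Of 40 assembly factors tested, 10 were called between activated natural Treg and natural Treg arrays, 6 higher and 4 lower, with Tmem70, which serves ATP synthase assembly, at -0.79, the copper chaperone Cox17 at 0.60 and Cox16, another complex IV factor, at -0.595. Between arrays labelled activated T and conventional T 5 of 40 were called, among them Cox17 (0.67) and Cox16 (-0.71). Of 76 mitochondrial ribosomal proteins 17 were called between the natural Treg labels, 5 higher and 12 lower, led by Mrps34 (-0.69), Mrpl45 (-0.67) and Mrpl40 (-0.59), and 5 between the T labels. Of 12 TCA cycle genes 5 were called between the natural Treg labels, including Suclg1 (0.40), Dld (-0.39) and Dlst (-0.35), and 0 between the T labels. Tfam, which packages and transcribes mitochondrial DNA, was called higher on activated natural Treg (0.925, adjusted p = 0.000406) and on activated T arrays (0.55, adjusted p = 0.0204). It was 1 of 3 biogenesis regulators called of 16 between the natural Treg labels, with Pprc1 (0.34) and Ppargc1b (-0.32). Of 9 carriers and porins 3 were called between the natural Treg labels (Slc25a11 at -0.31, Vdac2 at -0.25 and Vdac1 at 0.17), and of 10 genes around pyruvate dehydrogenase 1, the pyruvate carrier Mpc1 (-0.35), and between the T labels 0 of either. ND5, the mitochondrially encoded subunit measured, was called in neither comparison (-0.12 on activated natural Treg against natural Treg arrays and -0.27 on activated T against conventional T arrays). These comparisons coincide with the change of array set as described for the subunits, and 16.7% and 6.76% of all genes were called in them.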

How the data were processed

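RNA labelled as that of 10 groups of T cells was measured on 31 Affymetrix mouse 430 arrays, with 45101 probe sets, of which 34945 carry 1 gene symbol. The authors deposited 1 intensity per probe set and array on a linear scale. The sources used here do not give their summarisation, scaling or centring. They were quantile normalised, and log2(intensity + 16) was fitted with limma 3.58.1 in R 4.3.3, with 1 mean per label group over all 31 arrays, so that groups share an estimate of the spread. Adjustment (Benjamini-Hochberg) ran over the 12166 genes above the table's median on at least 2 arrays, with an adjusted p under 0.05 as the call. The number of arrays limits the precision. A difference is on the log2(intensity + 16) scale and understates changes of dim genes.

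The members, gene lists and rules were chosen with earlier results of these data known. Named by rule were, for each comparison, up to 6 called genes in each direction by size or, with none called, the 2 of smallest p; for levels, isoform families, the 3 most and least variable genes and those at background; and up to 3 called genes of each pathway list. Sdha, Uqcr10, Ndufa2, Cox7a1 and Atp5d in comparisons, and the genes named for array set, were singled out after their values were seen. Array sets were clusters of the arrays (Ward's method on 3 array-wide measures). Alternatives were other pseudocounts, no filter, deposited values, median scaling, probe set averages, array set or replicate number as a block, the actin ratio, and leaving out arrays or set 3; set 1 alone was added after the data were seen. The fit was tested on simulated data. Same-numbered arrays deviated with a median correlation of 0.00183 over 114 pairs, so the numbers were not taken to pair samples. Promoter motifs were counted with Python 3.11.15 and pandas 2.3.3. Coordinates are those of RefSeq's promoter windows, and none are given for probe sets, since the sources used here name no build for them.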

Additional observations from a re-analysis of the deposited data

Results flagged for a closer look

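For the 21 genes named in the comparisons, the label groups of 4 or 5 arrays were searched for an array farther from the others than Dixon's limit. It was passed in 6 of 63 gene and group pairs, against 17 of 264 (6.44%) over all 88 tested genes, and chance flags about 1 in 20 groups. On activated T 1, the only activated T array of set 2, Atp5mpl read 5070 against 4427 to 4471 on the other 3, and Ndufs3 read 3200 against 4116 to 4248. On induced Treg 5, the only induced Treg array of set 3, Sdhd read 1930 against 1460 to 1521 on the other 4 arrays. Natural Treg 4 had the highest Ndufb3 of its group, 2230 against 1850 to 1907. Ndufa6 read 3860 on activated T 3 against 3232 to 3283 on the other 3, and Ndufc1 read 3780 on induced Treg 1 against 4120 to 4176 on the other 4 arrays. The limit was also passed by a summary over genes, since the median deviation of the 88 genes from their means was 0.002 log2 units on 1 activated T array and up to 0.02 on the other 3.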

How the results depend on the processing

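The counts of called genes depended on the scaling and on the array set. The main counts were 14 in activated against conventional T (the first comparison), 17 in activated natural against natural Treg (the second), 1 in failed induced Treg against activated T, 2 after IL-2 and 15 over all groups. The share of all genes is given in brackets where shown. It is not given for fits that leave out 1 array, so their counts cannot be set against all genes. On deposited values the counts were 2 in activated against conventional T (11%) and 16 in activated natural against natural Treg (57.2%). They were 20 in induced Treg against activated T (59.3%), 0 in failed induced Treg, 0 after IL-2 and 53 over all groups (48.8%). With array median scaling they were 70 in activated against conventional T (32.5%), 64 in activated natural against natural Treg (22.8%), 40 in natural Treg against natural Foxp3-delta (12.3%) and 74 over all groups (32.7%). Averaged probe sets gave 0 in failed induced Treg (0.0351%) and 1 after IL-2 (1.22%). Array set as a block gave 1 in the first (0.0986%), 1 in the second (0.362%), 0 in failed induced Treg, 4 after IL-2 (1.69%) and 3 over all groups (1.26%). The actin ratio as a covariate gave 15 in the first (7.92%), 0 in the second (0.6%) and 0 in failed induced Treg (0%). It gave 2 after IL-2 (2.55%) and 12 over all groups (8.24%). Without array set 3 the count was 5 after IL-2 (5.68%), and the second comparison and the interaction could not be computed. The comparisons with activated T then rest on a lone array of that label. Set 1 alone gave 1 over all groups present (1.13%).

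The replicate block, which rests on numbers that do not pair the samples, gave 9 calls (5 higher, 4 lower; 4.01% of all genes) in natural Treg against natural Foxp3-delta and 1 after IL-2; 11 of 31 arrays correlated best with an array of their own number. The replicate block gave 15 in the first (6.71%), 22 in the second (18.7%) and 15 over all groups (14.5%). The share of all genes after IL-2 was 0.658%.

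Leaving out 1 array gave 4 to 17 calls in the first, 9 to 16 in the second, 0 to 2 after IL-2, 0 to 4 in failed induced Treg, 0 to 1 in induced Treg against activated T and 11 to 17 over all groups. Of 27 called differences named by rule, 10 were called in every such fit, and 0 of 277 values changed sign.

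Some differences changed sign. On deposited values these were Ndufb1 in the second (-0.23), Ndufaf1 in induced Treg against activated T (0.23), Ndufa4 in natural Treg against natural Foxp3-delta (-0.13) and Atp5g2 in the interaction (-0.021). With array median scaling they were, in the first, Ndufb10 (0.052), Ndufa4 (0.18), Ndufb6 (0.13), Atp5h (0.36) and Atp5g2 (0.24), in the second Ndufb6 (0.02), Atp5h (0.41), Ndufa6 (0.28) and Sdhc (0.091), and in natural Treg against natural Foxp3-delta Ndufa4 (-0.22). With averaged probe sets Ndufb9 in the first was -0.052. With array set as a block, Ndufb2 was -0.13 and Atp5h 0.105 in the first, Ndufb2 -0.088, Ndufb10 0.011 and Atp5h 0.065 in the second, and Ndufa4 -0.016 in natural Treg against natural Foxp3-delta. The cause was not tested. Other pseudocounts and no filter left the counts within 1.5 times of the main counts. Of the 89 genes above background on all arrays, 88 were so on deposited values and 87 against the highest control.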
